A study of Oryza sativa Japonica Group with 9 samples.

Results

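Alpha-expansins were examined in developing rice grain as 9 genes, EXPA1 to EXPA8 and EXPA10, of the 55986 gene models measured. They were chosen by locus identifier: EXPA1 is LOC_Os04g15840, EXPA2 is LOC_Os01g60770, EXPA3 is LOC_Os05g19570, EXPA4 is LOC_Os05g39990 and EXPA5 is LOC_Os02g51040. EXPA6 is LOC_Os03g21820, EXPA7 is LOC_Os03g60720, EXPA8 is LOC_Os01g14650 and EXPA10 is LOC_Os04g49410. The deposited table carries no gene names. For 9 of 9 genes the chromosome in the locus identifier was that of the RefSeq entry with the same EXPA symbol, but the RefSeq table holds no identifiers of this kind, so the names were not checked further. RefSeq lists 29 EXPA symbols, and those outside these 9 were not analysed here.

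Expansins are secreted proteins that loosen the plant cell wall without cutting its polymers, so that turgor can stretch the cell; they act best in acidified walls. The alpha and beta classes differ in sequence and in the walls they act on, and grasses have large families of both. Their transcripts are used as markers of cell expansion, and in a caryopsis the pericarp, the nucellus and the young endosperm all enlarge before storage products fill the grain.

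RNA sequencing was done on caryopses of the japonica cultivar Nipponbare in 3 groups of 3 libraries. The groups were GSK5-/- plants, edited in the gene of a GSK3/SHAGGY-like kinase, ARF4-/- plants, edited in the gene of an auxin response factor, and wild-type (WT) plants; kinases of this class restrain brassinosteroid signalling. Sample labels give day 9 after flowering and the series text gives days 7 to 8, and which holds was not settled. No source used here gives the nature of the edits, the number of edited lines or whether each library came from its own plant. The p-values therefore cover the variation among these libraries, which may be technical. Values are FPKM, fragment numbers corrected for transcript length and library total, which allow levels of different genes to be set side by side; depth in reads is unknown.

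Summed FPKM per library was 585414 to 626390, and 20840 to 23172 genes reached 1 FPKM. The gene taken as GSK5 had 32.21 ± 1.56 FPKM in GSK5-edited and 39.79 ± 7.95 FPKM in WT grain (SD, n = 3 each; adjusted p by limma 0.395), and ARF4 had 50.45 ± 3.4 FPKM in ARF4-edited and 83.96 ± 14.2 FPKM in WT grain (adjusted p by limma 0.0388). Of the markers of filling endosperm, Wx, the granule-bound starch synthase gene, had 1.36 to 4.16 FPKM in GSK5-edited, 0.42 to 1.2 FPKM in ARF4-edited and 0.22 to 0.66 FPKM in WT libraries. SSIIa, another starch synthase gene, stayed under 1 FPKM in each library, as did OLE18, an oleosin gene of the embryo. The pericarp and maternal markers CAB2R, RBCS3, MADS13 and MADS29 were well above 1 FPKM in each library. Other endosperm markers were well above these, AGPL2, a subunit of ADP-glucose pyrophosphorylase, at 22.51 to 96.31 FPKM and BEIIb, a starch branching enzyme, at 30.67 to 51.45 FPKM over the 9 libraries, with SSIIIa and ISA1 at 4.06 FPKM or more in each. The other 3 embryo markers, OSH1, VP1 and OLE16, reached 1 FPKM in each library except ARF4 replicate 2 for OLE16. Markers of the maternal tissues, and part of those of endosperm and embryo, were thus detected.

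The family was carried by a few genes. EXPA4, known from elongating internodes and coleoptiles, and EXPA2 had the highest levels, with means over the 9 libraries of 194.4 and 83.02 FPKM. EXPA7, reported to affect growth under salt stress, followed at 67.49 FPKM, then EXPA6 at 24.04, EXPA1 at 23.31, EXPA5 at 15.37 and EXPA10, an aluminium-inducible gene of root tips, at 4.24 FPKM. EXPA8, known from root growth, and EXPA3 were near the bottom of the measured range, with means of 0.2744 and 0.1689 FPKM, and neither reached 1 FPKM in any library. The 7 others reached 1 FPKM in each library except WT replicate 1, where 5 of the 9 genes did.

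EXPA4 had 173.36, 267.48 and 170.36 FPKM in GSK5 replicates 1, 2 and 3, 243.16, 187.5 and 316.69 FPKM in ARF4 replicates 1, 2 and 3, and 28.55, 68.64 and 293.73 FPKM in WT replicates 1, 2 and 3. The edited libraries lay within less than 2-fold of each other, and the WT libraries reached both below and into that range. EXPA2 had 73.55, 100.83 and 122.05 FPKM in the GSK5 replicates, 83.95, 138.94 and 44.97 FPKM in the ARF4 replicates and 4.44, 10.95 and 167.52 FPKM in the WT replicates. Here 2 WT libraries were far below each edited library and the remaining WT library was above each of them.

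EXPA7 had 63.08, 72.86 and 66.81 FPKM in the GSK5 replicates, 74.36, 77.19 and 71.91 FPKM in the ARF4 replicates and 19.61, 57.9 and 103.71 FPKM in the WT replicates. Its level was the most even of the 7 expressed genes over the ARF4-edited libraries, with a highest value 1.07 times the lowest, against 1.16 times in GSK5-edited and 5.29 times in WT libraries. EXPA1 had 23.51, 40.75 and 27.26 FPKM in the GSK5 replicates, 5.7, 27.64 and 11.13 FPKM in the ARF4 replicates and 0.03, 4.61 and 69.17 FPKM in the WT replicates. Of the 7 expressed genes it had the lowest level in WT replicate 1, and over the 9 libraries it was highest in WT replicate 3.

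EXPA5 had 12.71, 11.33 and 17.06 FPKM in the GSK5 replicates, 16.09, 34.71 and 23.84 FPKM in the ARF4 replicates and 0.45, 4.43 and 17.68 FPKM in the WT replicates. WT replicate 3 lay above each GSK5-edited library and inside the ARF4-edited range, and WT replicates 1 and 2 lay below both edited groups. EXPA6 had 30.39, 32.65 and 29.67 FPKM in the GSK5 replicates, 21.59, 8.03 and 37.96 FPKM in the ARF4 replicates and 11.52, 16.78 and 27.77 FPKM in the WT replicates. For this gene the GSK5-edited libraries were all above the WT libraries, and the ARF4-edited libraries spanned more than the WT range. EXPA10 had 4.2, 4.49 and 4.05 FPKM in the GSK5 replicates, 4.42, 6.88 and 3.41 FPKM in the ARF4 replicates and 2.52, 2.92 and 5.27 FPKM in the WT replicates.

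The pair at the bottom of the scale stayed under 1 FPKM throughout. EXPA8 had 0.32 to 0.46 FPKM in GSK5-edited, 0.04 to 0.52 FPKM in ARF4-edited and 0.06 to 0.47 FPKM in WT libraries. EXPA3 had 0.2 to 0.29 FPKM in GSK5-edited libraries; it was listed at 0 in ARF4 replicate 2 and in WT replicate 1, and at no more than 0.34 FPKM in the other ARF4-edited and 0.13 FPKM in the other WT libraries. Both were at their highest in ARF4 replicate 3 and at their lowest in ARF4 replicate 2, a position EXPA3 shared with WT replicate 1. The lowest of these values above 0 stand a few steps above the 0.01 FPKM resolution of the table.

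**Figure D1:**
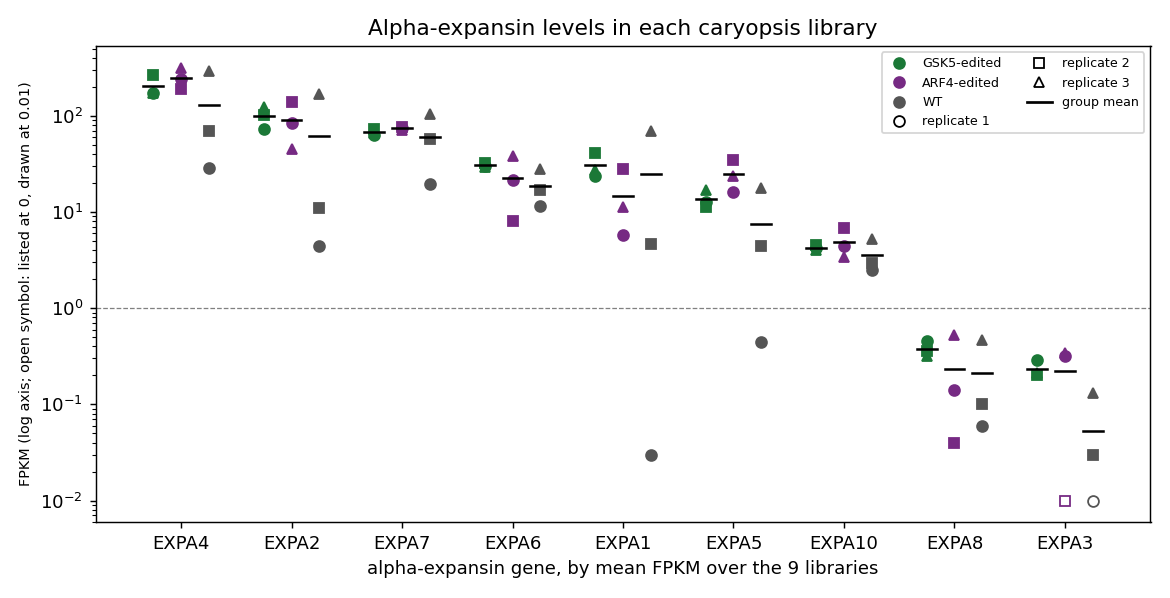
FPKM of each alpha-expansin gene (log axis) in the GSK5-edited (green), ARF4-edited (purple) and WT (grey) libraries; symbols mark the replicate number, black lines the group means, the dashed line 1 FPKM, and open symbols values listed at 0. The WT libraries are spread widely for EXPA4, EXPA2, EXPA1 and EXPA5, while the GSK5-edited libraries lie closer together.

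Ordered by mean level, EXPA4 was first and EXPA2 second in each of the 3 groups. The second place was narrow in WT grain, with means of 60.97 FPKM for EXPA2 and 60.41 FPKM for EXPA7. EXPA2 exceeded EXPA7 in 1 of 3 WT libraries, WT replicate 3. In GSK5-edited grain 7 of the 8 neighbouring genes in the order had separate ranges, the exception being EXPA6 and EXPA1, at 30.9 ± 1.55 and 30.51 ± 9.07 FPKM (SD, n = 3). In ARF4-edited grain the ranges of 5 of 8 neighbours overlapped, including EXPA2 with EXPA7 and EXPA5 with EXPA6. In WT grain 7 of 8 overlapped, and the sole separate neighbours were EXPA10 and EXPA8. Even so, EXPA4 exceeded EXPA2 within each single library of every group.

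The summed level of the 9 genes was 381.6, 531 and 437.8 FPKM in the GSK5 replicates, 449.7, 480.9 and 510.8 FPKM in the ARF4 replicates and 67.18, 166.4 and 685.4 FPKM in the WT replicates. Both edited groups thus fell inside the WT range, and WT replicate 3 held the highest sum of the 9 libraries and WT replicate 1 the lowest. The highest sum was 1.39 times the lowest in GSK5-edited, 1.14 times in ARF4-edited and 10.2 times in WT grain. In bulk tissue a lower level can come from fewer cells of a type or from less RNA per cell, and these cannot be told apart.

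The make-up of the family also varied between libraries, gene by gene. EXPA4 supplied 38.9% to 50.4% of the summed FPKM in GSK5-edited, 39% to 62% in ARF4-edited and 41.3% to 42.9% in WT libraries. EXPA7 supplied 13.7% to 16.5% in GSK5-edited and 14.1% to 16.5% in ARF4-edited libraries, and 29.2%, 34.8% and 15.1% in WT replicates 1, 2 and 3. EXPA2 made up 6.61% and 6.58% of the sum in WT replicates 1 and 2 and 24.4% in WT replicate 3, against 19% to 27.9% in GSK5-edited and 8.8% to 28.9% in ARF4-edited libraries. EXPA1 supplied 6.16% to 7.67% in GSK5-edited and 1.27% to 5.75% in ARF4-edited libraries, and 0.0447%, 2.77% and 10.1% in WT replicates 1, 2 and 3. EXPA6 supplied 6.15% to 7.96% in GSK5-edited and 1.67% to 7.43% in ARF4-edited libraries, and 17.1%, 10.1% and 4.05% in the WT replicates. In WT replicate 3 the shares of EXPA4, EXPA2, EXPA7 and EXPA6 thus lay inside the range of the edited libraries, while its EXPA1 share and its summed level were above each of them.

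**Figure D2:**
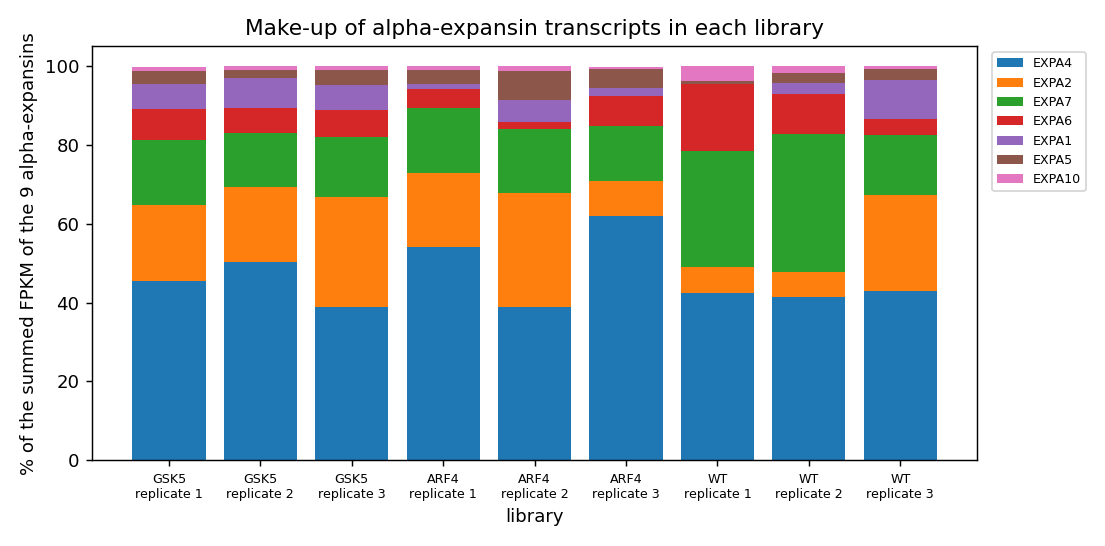
Share of the summed FPKM of the 9 alpha-expansins contributed by each of the 7 expressed genes (stacked bars, percent) in each library. EXPA4 forms the largest block in all 9 libraries, and EXPA7 and EXPA6 take larger shares in WT replicates 1 and 2 than elsewhere.

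Tests were made with limma on log2(FPKM + 1), with a mean for each group and a spread shared by all 9 libraries, and p-values were adjusted by the Benjamini-Hochberg method over the 23385 genes with at least 1 FPKM in at least 3 libraries. Log2 changes on this scale are smaller than those of FPKM itself for low genes. Of the 9 alpha-expansins 7 passed this filter and EXPA3 and EXPA8 did not.

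The first comparison asked whether these transcripts differed in grain of GSK5-edited plants. In GSK5-edited against WT grain 0 of 7 tested alpha-expansins passed an adjusted p of 0.05 in limma, where 2.15% of all tested genes did; at an unadjusted p under 0.05 the count was also 0. For 7 of 7 the log2 change was positive and its median was 1.24; over all tested genes 63.1% were positive and the median was 0.11. EXPA2 averaged 98.81 ± 24.3 FPKM in GSK5-edited and 60.97 ± 92.3 FPKM in WT grain (SD, n = 3 each), a log2 change of 2.14 with an interval of -0.4 to 4.68 (95%) and adjusted p by limma of 0.334. EXPA1 averaged 30.51 ± 9.07 FPKM in GSK5-edited and 24.6 ± 38.7 FPKM in WT grain, with a log2 change of 2.05 (interval -0.97 to 5.08; adjusted p by limma 0.413). It was 3.09 with 0.1 FPKM and 1.18 with 5 FPKM added in place of 1, and the median of the 7 genes was 1.26 and 0.82 in those settings, without a call.

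The other genes had smaller log2 changes in the same comparison, though not all had smaller ratios of mean FPKM. That ratio was 1.62 for EXPA2 and 1.24 for EXPA1. It was 1.82, 1.65, 1.56, 1.19 and 1.12 for EXPA5, EXPA6, EXPA4, EXPA10 and EXPA7. EXPA5 averaged 13.7 ± 2.99 FPKM in GSK5-edited and 7.52 ± 9.02 FPKM in WT grain (log2 change 1.46, SE 0.79, adjusted p by limma 0.347), and EXPA4 averaged 203.7 ± 55.2 and 130.3 ± 143 FPKM in the same groups (log2 change 1.24, SE 0.71, adjusted p by limma 0.372). EXPA6, whose GSK5-edited libraries were all above the WT ones, averaged 30.9 ± 1.55 FPKM in GSK5-edited and 18.69 ± 8.29 FPKM in WT grain, and its log2 change of 0.78 (SE 0.5) had an adjusted p by limma of 0.413. It was the single tested alpha-expansin without overlap between these groups; among all tested genes 18.3% lay wholly higher in GSK5-edited grain. EXPA7 and EXPA10 had log2 changes of 0.45 and 0.25, with adjusted p by limma of 0.616 and 0.62. Their intervals were -0.67 to 1.57 for EXPA7 and -0.38 to 0.87 for EXPA10, so of the 7 genes EXPA10 was the one whose possible change was bounded most closely.

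The second comparison set ARF4-edited against WT grain. Again 0 of 7 tested alpha-expansins passed by limma, where 3.32% of all tested genes did, and 1 had an unadjusted p under 0.05. That gene was EXPA5, at 24.88 ± 9.35 FPKM in ARF4-edited and 7.52 ± 9.02 FPKM in WT grain (SD, n = 3 each). Its log2 change was 2.23 with an interval of 0.42 to 4.03, and its adjusted p by limma was 0.137. All 7 log2 changes were positive and their median was 0.84; over all tested genes 55.3% were positive and the median was 0.05. The size of these changes depended on the pseudocount: the median of the 7 was 1.55 with 0.1 FPKM and 0.53 with 5 FPKM added, and 0 of the 7 were called with either. EXPA2 averaged 89.29 ± 47.2 FPKM in ARF4-edited and 60.97 ± 92.3 FPKM in WT grain (log2 change 1.88, SE 1.11, adjusted p by limma 0.316), and EXPA4 averaged 249.1 ± 64.8 and 130.3 ± 143 FPKM in the same groups (log2 change 1.53, SE 0.71, adjusted p by limma 0.225).

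EXPA1 showed how the log scale weighs the lowest library in this comparison. Its mean was 14.82 ± 11.4 FPKM in ARF4-edited and 24.6 ± 38.7 FPKM in WT grain, yet its log2 change was 0.84 (SE 1.32, adjusted p by limma 0.714), since the WT value of 0.03 FPKM counts more on the log scale than in the mean. With 0.1 FPKM added in place of 1 it was 1.8, and with 5 FPKM added 0.22. EXPA7, EXPA10 and EXPA6 had log2 changes of 0.59, 0.37 and 0.1, with adjusted p by limma of 0.47, 0.408 and 0.915. No alpha-expansin lay wholly higher or lower in the ARF4-edited than in the WT libraries, against 11.1% of tested genes wholly higher and 12.6% wholly lower. Both comparisons share the WT libraries, so their changes are not independent of each other.

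Between the edited groups, 0 of 7 tested alpha-expansins passed in GSK5-edited against ARF4-edited grain by limma, where 0.483% of tested genes did, and 0 had an unadjusted p under 0.05. EXPA1 had a log2 change of 1.21, at 30.51 ± 9.07 FPKM in GSK5-edited and 14.82 ± 11.4 FPKM in ARF4-edited grain (adjusted p by limma 0.742). EXPA6 had 0.68, at 30.9 ± 1.55 and 22.53 ± 15 FPKM in the same groups (adjusted p by limma 0.603), and EXPA5 had -0.77, at 13.7 ± 2.99 and 24.88 ± 9.35 FPKM (adjusted p by limma 0.719). The remaining log2 changes were 0.26 for EXPA2, -0.13 for EXPA10, -0.14 for EXPA7 and -0.29 for EXPA4. The intervals, -2.28 to 2.8 for EXPA2 and -1.93 to 1.35 for EXPA4, include changes of more than 2-fold in both directions, so the test does not show that these genes had like levels in the edited groups. Their width includes the scatter of the WT libraries, since the fit shares its spread over all 9. The SD of log2(FPKM + 1) was 0.37, 0.8 and 2.59 for EXPA2 in GSK5-edited, ARF4-edited and WT grain. For EXPA4 it was 0.37, 0.38 and 1.68 in the same groups. No alpha-expansin lay wholly higher or lower in the GSK5-edited than in the ARF4-edited libraries, against 18.3% of tested genes wholly higher and 8.02% wholly lower. In the test for any difference among the 3 groups, 0 of 7 passed by limma, beside 3.28% of tested genes; EXPA5 had the lowest adjusted p of the 7, 0.224.

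**Figure D3:**
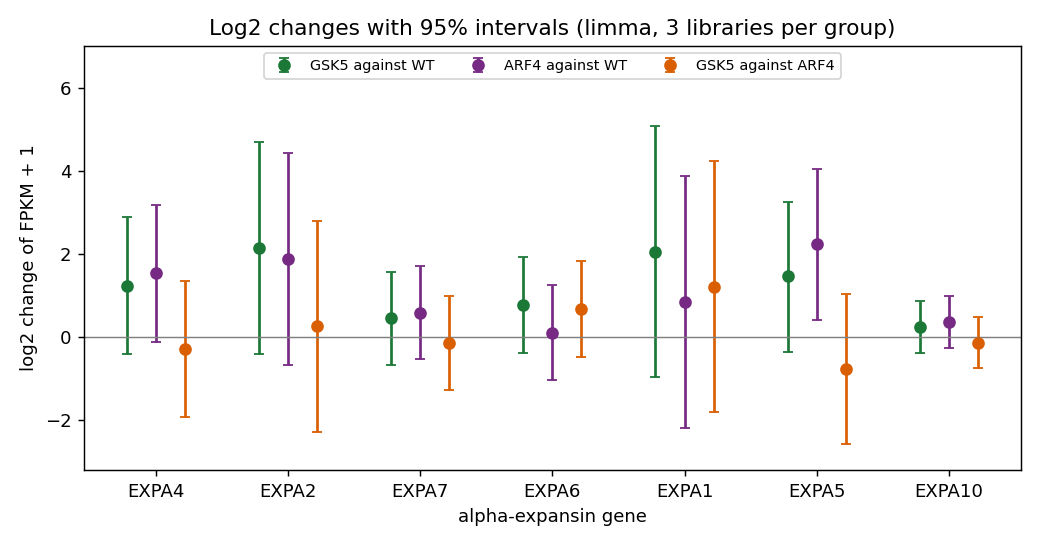
Log2 change of FPKM + 1 with its 95% interval for the 7 tested alpha-expansins, in GSK5-edited against WT (green), ARF4-edited against WT (purple) and GSK5-edited against ARF4-edited grain (orange). All intervals include 0 except that of EXPA5 in ARF4-edited against WT grain, and those of EXPA10 are the narrowest.

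Spread within a group was largest in WT grain for each of the tested alpha-expansins except EXPA6. The SD of log2(FPKM + 1) within a group had a median over the 7 genes of 0.28 in GSK5-edited, 0.53 in ARF4-edited and 1.68 in WT grain, beside medians over all tested genes of 0.11, 0.24 and 0.27. In WT grain EXPA1 had an SD of 3.06, and 5 of the 23385 tested genes had a larger one; EXPA2 had 2.59, with 25 genes above it. For EXPA5, EXPA4 and EXPA7 the WT SD was 1.84, 1.68 and 1.19, which 0.791%, 1.26% and 3.99% of tested genes exceeded. EXPA6 and EXPA10 were less extreme, with an SD of 0.6 and 0.44 that 17.1% and 27.4% of genes exceeded. The SD of EXPA6 was largest in ARF4-edited grain, at 1.07. WT replicate 1 was the lowest and WT replicate 3 the highest WT library for 7 of 7 tested alpha-expansins, and 35.4% of all tested genes had the WT libraries in that order.

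Leaving out WT replicate 3 brought several alpha-expansins past the threshold. Without it 4 of 7 were higher in GSK5-edited grain by limma, when 6.89% of all tested genes were called higher and 11.6% were called in either direction. EXPA2 then had a log2 change of 3.6 (adjusted p by limma 0.0122), EXPA4 2.14 (0.0241), EXPA1 3.67 (0.034) and EXPA5 2.37 (0.0385), and EXPA6, EXPA7 and EXPA10 were not called. In ARF4-edited against WT grain 3 of 7 were higher without WT replicate 3, when 7.36% of all tested genes were called higher and 15% were called in either direction. They were EXPA2 at 3.34 (adjusted p by limma 0.0127), EXPA4 at 2.43 (0.0153) and EXPA5 at 3.14 (0.0178). The test among the 3 groups then called 3 of 7, beside 12.2% of all tested genes. This setting leaves 2 WT libraries, both low for these genes.

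Without WT replicate 1 the log2 changes of the alpha-expansins against WT were lower than with all 9 libraries. No alpha-expansin was called in GSK5-edited or ARF4-edited against WT grain, where 0.872% and 1.41% of all tested genes were, and the median log2 change of the 7 genes was 0.5 in GSK5-edited and 0.21 in ARF4-edited against WT grain. The log2 change of EXPA7 turned to -0.2 in GSK5-edited and -0.06 in ARF4-edited against WT grain, and those of EXPA1 and EXPA6 to -0.58 and -0.18 in ARF4-edited against WT grain. Without WT replicate 2 no alpha-expansin was called in these comparisons either, where 0.727% and 0.761% of all tested genes were, and the medians were 1.1 and 0.7. Which WT libraries were used therefore decided both the calls and, for these 3 genes, the sign.

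**Figure D4:**
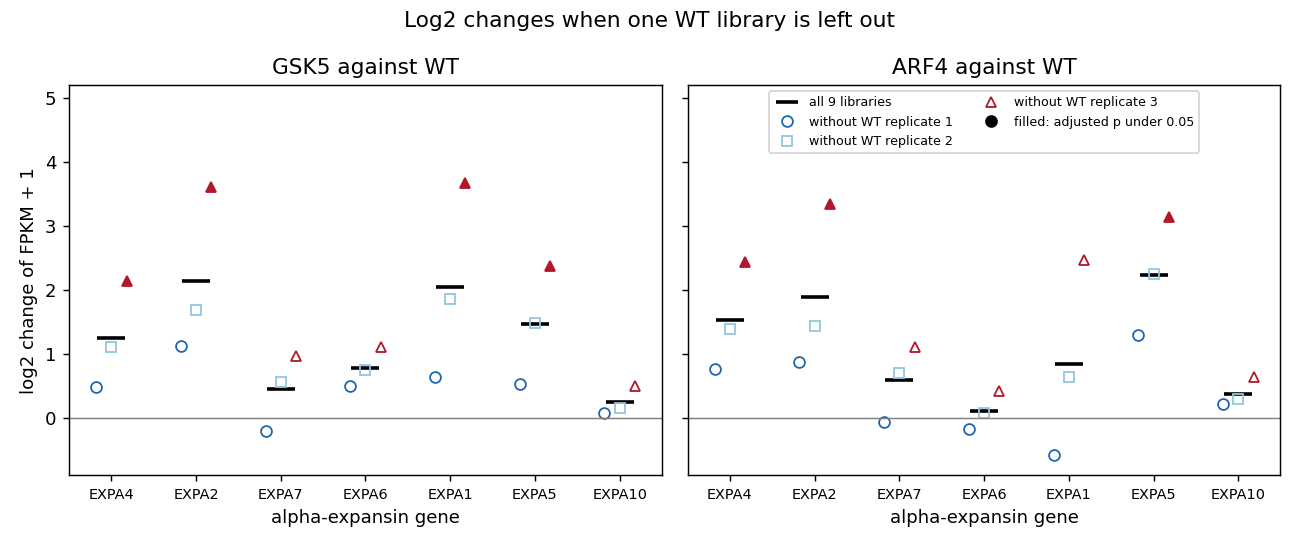
Log2 change of FPKM + 1 for each tested alpha-expansin in GSK5-edited (left) and ARF4-edited (right) against WT grain, with all 9 libraries (black bars) and without WT replicate 1, 2 or 3 (circles, squares and triangles; filled where the adjusted p was under 0.05). Filled symbols occur only without WT replicate 3, and values below 0 only without WT replicate 1.

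Agreement between the genes also rested on the WT libraries. Over the 9 libraries the Pearson r of log2(FPKM + 1) between the 15 pairs of tested alpha-expansins other than EXPA6 was 0.67 to 0.9, given as a description since the libraries fall into 3 groups. EXPA6 stood apart, with r of -0.12 to 0.59 in its 6 pairs. Over the 6 edited libraries alone, 11 of the 21 pairs had an r below 0, of which 6 were among the 15 pairs without EXPA6. Those 15 pairs then had r of -0.65 to 0.75 with a median of 0.22, beside a median of 0.86 over the 9 libraries. EXPA2 and EXPA4 had r of 0.88 over 9 and -0.65 over the 6 edited libraries, and EXPA6 and EXPA10 had r of -0.12 and -0.95. In ARF4 replicate 2, EXPA1, EXPA2, EXPA5, EXPA7 and EXPA10 were at their highest of the 3 ARF4 libraries and EXPA6 and EXPA4 at their lowest, whereas ARF4 replicate 3 had the reverse for EXPA2, EXPA7, EXPA10, EXPA6 and EXPA4.

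Among all tested genes, the 3 whose log2(FPKM + 1) followed EXPA4 most closely over the 9 libraries were LOC_Os06g37020 (r = 0.989), LOC_Os07g34570 (0.984) and LOC_Os06g05860 (0.984). For EXPA2 they were LOC_Os07g37350 (r = 0.995), LOC_Os11g01380 (0.992) and LOC_Os12g01390 (0.985). The table does not pair these identifiers with names. LOC_Os07g34570 had means of 611, 817 and 430 FPKM in GSK5-edited, ARF4-edited and WT grain. Over the 6 edited libraries r was 0.866 to 0.88 for the 3 genes nearest EXPA4 and 0.931 to 0.944 for those nearest EXPA2. The genes were picked by r over all 9 libraries, which include these 6, so these values are no separate check of the likeness.

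Other wall genes were set beside the alpha-expansins from lists written from memory, with names unchecked. The 14 beta-expansins, the class best known from grass walls, had summed levels of 2013 to 2548 FPKM in GSK5-edited and 841 to 1525 FPKM in ARF4-edited libraries, and of 241, 804.3 and 3151 FPKM in WT replicates 1, 2 and 3. Their sum was thus lowest and highest in the same WT libraries as that of the alpha-expansins. The 9 xyloglucan endotransglucosylase/hydrolases (XTH), which cut and rejoin xyloglucan, summed to 982.1 to 1127 FPKM in GSK5-edited and 829.2 to 1215 FPKM in ARF4-edited libraries, and to 590.8, 1147 and 429.6 FPKM in WT replicates 1, 2 and 3. The most abundant XTH, LOC_Os06g48200, had 511.26 to 603.91 FPKM in GSK5-edited and 319.57 to 543.72 FPKM in ARF4-edited libraries. In the WT replicates it had 264.81, 776.77 and 166.75 FPKM. Another XTH, LOC_Os06g48180, had 212.22, 110.81 and 43.61 FPKM there, so the low sum of WT replicate 3 was not due to LOC_Os06g48200 alone. LOC_Os06g48200 was the single XTH lowest in WT replicate 3, and 6 of the 9 were lowest in WT replicate 1. The mean log2(FPKM + 1) of the XTH was likewise lowest in WT replicate 1, at 3.97, with 4.88 in WT replicate 3. The 9 CESA genes, encoding catalytic subunits of cellulose synthase, summed to 568.9 to 669.8 FPKM in GSK5-edited and 384.7 to 1141 FPKM in ARF4-edited libraries. In WT replicates 1, 2 and 3 they summed to 156.6, 381.6 and 535.6 FPKM, and 9 of 9 were lowest in WT replicate 1.

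With all libraries, limma called 0 of 12 tested beta-expansins, 0 of 9 XTH and 0 of 9 CESA genes in either comparison with WT. Their median log2 changes in GSK5-edited against WT grain were 1.3, 0.8 and 0.85, beside 1.24 for the alpha-expansins. In ARF4-edited against WT grain they were 0.13, 1.35 and 0.93, beside 0.84 for the alpha-expansins. The most abundant beta-expansins, EXPB3 and EXPB4, averaged 1294 ± 258 and 286.5 ± 40.1 FPKM in GSK5-edited, 608.3 ± 287 and 271.3 ± 56.4 FPKM in ARF4-edited and 824.7 ± 927 and 238.1 ± 240 FPKM in WT grain (SD, n = 3). XTH8, the XTH second in level, averaged 172 ± 83.2, 257.6 ± 90 and 67.36 ± 29.9 FPKM in the same groups, and its adjusted p by limma in ARF4-edited against WT grain was 0.0524 with all libraries. Of the CESA genes CESA1 and CESA8 were the most abundant, with 165.3 ± 14.7 and 149.1 ± 8.13 FPKM in GSK5-edited, 134.7 ± 40 and 131.9 ± 21.3 FPKM in ARF4-edited and 93.75 ± 53.4 and 89.86 ± 44.6 FPKM in WT grain. Without WT replicate 3, 2 of 12 beta-expansins (EXPB4 and EXPB6) were higher in GSK5-edited grain and 1 (EXPB4) in ARF4-edited grain by limma, next to 4 and 3 of 7 alpha-expansins. In the same setting 1 of 9 CESA genes, CESA8, was higher in GSK5-edited grain (log2 change 1.21, adjusted p by limma 0.0378) and 1 of 9 XTH, XTH8, in ARF4-edited grain (2.05, adjusted p by limma 0.0423), with 0 XTH called in GSK5-edited and 0 CESA in ARF4-edited against WT grain. The difference between the families was not tested.

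**Figure D5:**
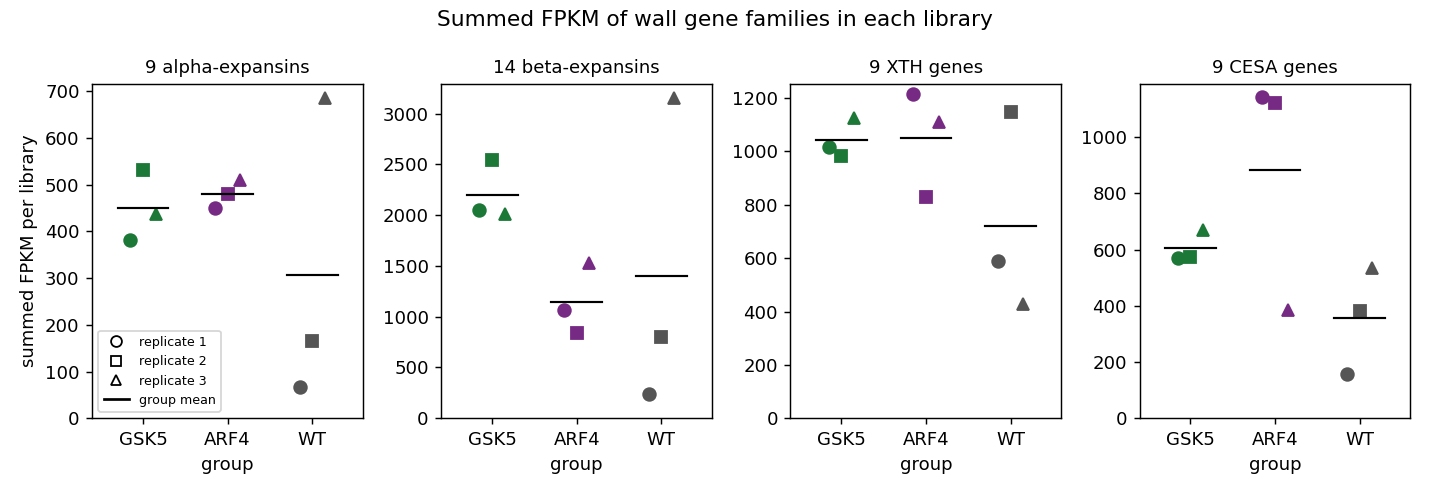
Summed FPKM per library (each axis starts at 0) of the 9 alpha-expansins, 14 beta-expansins, 9 XTH and 9 CESA genes in GSK5-edited (green), ARF4-edited (purple) and WT (grey) libraries; symbols mark replicate numbers and lines the group means. WT replicate 3 has the highest sum of both expansin classes and the lowest of the XTH genes.

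Tissue markers varied in the same libraries. The 7 endosperm markers in the table summed to 150.3 to 170.3 FPKM in GSK5-edited and 85.93 to 92.37 FPKM in ARF4-edited libraries, and to 64.4, 84.12 and 105.2 FPKM in WT replicates 1, 2 and 3, so the WT libraries had the order seen for alpha-expansins. Of these markers 5, 5 to 6 and 4 reached 1 FPKM in GSK5-edited, ARF4-edited and WT libraries, and RPBF, an endosperm transcription factor gene, was listed at 0 in WT replicates 1 and 2. The 4 green pericarp markers summed to 1541 to 1877 FPKM in GSK5-edited and 1555 to 2508 FPKM in ARF4-edited libraries and to 3008, 1959 and 2048 FPKM in WT replicates 1, 2 and 3, with 4 of 4 above 1 FPKM throughout. The 3 nucellus and maternal markers summed to 228.2 to 273.6 FPKM in GSK5-edited and 170.2 to 230.1 FPKM in ARF4-edited libraries. In WT replicates 1, 2 and 3 they summed to 184.9, 234.5 and 280.3 FPKM, again in the order of the alpha-expansins. Taken singly, MADS13 and SWEET14 had that order and MADS29 did not, at 65.94, 62.04 and 78.6 FPKM. Of the endosperm markers, BEIIb, ISA1, SSIIa, SSIIIa and AGPL2 had it and Wx did not, at 0.33, 0.22 and 0.66 FPKM. That order was thus not particular to the endosperm markers, and 35.4% of all tested genes had it. The 4 embryo markers summed to 14.94 to 18.93 FPKM in GSK5-edited and 17.6 to 26.84 FPKM in ARF4-edited libraries. Their sums in WT replicates 1, 2 and 3 were 7.47, 27.95 and 11.21 FPKM, not in the order of the alpha-expansins. The part of tissue make-up in the alpha-expansin levels was not tested.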

How the data were processed

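Transcripts were measured in 9 caryopsis libraries (3 GSK5-edited, 3 ARF4-edited, 3 WT), grouped by sample title. The deposited table holds FPKM for 55986 gene models, rounded by the authors to 2 decimals. The submitters' processing notes name Bowtie 0.12.2 and the mouse build mm8, which cannot describe rice loci. Rice build, annotation, quantifier and strand are not given in the sources used; close paralogs may share reads. Depth is unknown and no count model was fitted.

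FPKM were analysed as log2(FPKM + 1) with limma 3.58.1 (R 4.3.3; mean-variance trend, not robust), 1 mean per group, for 23385 genes with at least 1 FPKM in at least 3 libraries. The fit was tested on simulated data. Plots used Python 3.11.15 and matplotlib 3.10.9. Alternatives changed scaling, pseudocount, filter, libraries in the fit, robust estimation, group weights and replicate block.

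Members and lists were chosen with earlier results of these data known. All 9 members were named, with the 2 most abundant genes of each other wall list, those called without WT replicate 3 and the 3 genes most like EXPA4 and EXPA2. Of 53 other list genes, 52 are in the table; lists needing RefSeq descriptions were dropped.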

Additional observations from a re-analysis of the deposited data

How the results depend on the processing

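The count of alpha-expansins called stayed at 0 in all 10 settings other than leaving out libraries for each pairwise comparison, and in 9 of 9 for the test among 3 groups. Leaving out 1 library gave 0 to 4 (GSK5 against WT), 0 to 3 (ARF4 against WT), 0 (GSK5 against ARF4) and 0 to 3 (the 3 groups); calls appeared only without WT replicate 3. Over 21 gene comparisons and 396 values, 382 kept direction and call, 7 passed the threshold without WT replicate 3 and 7 changed sign, none of them called. Leaving out 1 library, the log2 change lay between -0.2 and 0.97 for EXPA7 (GSK5 against WT), below 0 without WT replicate 1. In ARF4 against WT it lay between -0.06 and 1.11 for EXPA7, -0.58 and 2.46 for EXPA1 and -0.38 and 0.68 for EXPA6, below 0 without WT replicate 1 and, for EXPA6 (-0.18 without WT replicate 1), lowest without ARF4 replicate 3. In GSK5 against ARF4 it lay between -0.16 and 0.65 for EXPA2, below 0 without ARF4 replicate 3, and -0.32 and 0.1 for EXPA10, above 0 without ARF4 replicate 2. The cause was not tested.

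Over all genes the counts were 502 (GSK5 against WT), 776 (ARF4 against WT), 113 (GSK5 against ARF4) and 768 (any difference). A minimum mean of 5 FPKM, which tests fewer genes, gave 148, 571, 35 and 354. The replicate block gave 239, 219, 30 and 214, with 0 alpha-expansins called. Same-numbered libraries had correlated deviations of -0.35 to 0.08 and 0 of 9 libraries matched their own number best, so no pairing by number was seen. Group weights gave 142 for ARF4 against WT and 226 for GSK5 against ARF4, the fit over 2 groups 82 and 205. For GSK5 against ARF4, log2(FPKM + 0.1) gave 69 and no filter 220. Leaving out 1 library gave 135 to 2719, 156 to 3498, 17 to 504 and 180 to 2860. With no filter EXPA3 and EXPA8 had adjusted p by limma of 0.356 to 0.992. Quantile normalization moved the median log2 change of all genes in GSK5 against WT to -0.01, where it was 0.11 without it, and that of the tested alpha-expansins to 1.25, beside 1.24.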

Other observations

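A few other wall genes varied within a group more widely than the alpha-expansins did there. EXPB1, which belongs to the pollen allergen group of beta-expansins, had 52.9, 9.44 and 0.73 FPKM in GSK5 replicates 1, 2 and 3, 0.09, 0.38 and 0.17 FPKM in the ARF4 replicates and 0.84, 0.08 and 13.3 FPKM in the WT replicates. EXPB9 had 212.64, 53.09 and 13.65 FPKM in the same GSK5 replicates, 0.42, 8.79 and 1.13 FPKM in the ARF4 replicates and 12.12, 5.13 and 93.08 FPKM in the WT replicates. No alpha-expansin of the 7 tested differed by more than 1.73 times among the GSK5-edited libraries. CESA4, CESA7 and CESA9, the cellulose synthase genes of secondary walls, had 206.76, 188.32 and 155.63 FPKM in ARF4 replicate 1, 200.55, 200.53 and 168.52 FPKM in ARF4 replicate 2 and 2.88, 0.88 and 1.04 FPKM in ARF4 replicate 3. Among the alpha-expansins none separated ARF4 replicate 3 from the other ARF4 replicates to that extent: EXPA2 had 44.97 FPKM there against 83.95 and 138.94 FPKM. These genes were singled out after their values were seen.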
